A study of Mus musculus with 16 samples.

Results

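Hair follicle stem cells (HFSCs) of the bulge are kept by a small set of transcription factors, and 7 of them, Lhx2, Sox9, Nfatc1, Tcf7l1, Id2, Foxc1 and Runx1, were followed here among 22612 genes. The genes were taken by name, each with the transcript that held the most ribosome footprints, and RNA-seq counts were present for all 7 members. Ribo-seq, the sequencing of the mRNA pieces protected by ribosomes, reached the minimum of 10 footprints summed over its libraries for 5 of them, while Lhx2 (5 footprints) and Tcf7l1 (1) stayed below it, and Runx1, with 27, was the lowest above it. The cells came from C57BL/6J mice whose epidermal cells had grown for 2 weeks as 3D–3C organoids, a culture that holds both HFSCs and their progeny. Per the methods of the study, donors were of both sexes and in telogen, the resting stage of the hair cycle, from 1 of 2 postnatal age ranges, and which range each donor came from is not given in the sources used here. Integrin α6+/CD34− cells, called progenitors, and α6+/CD34+ cells, called HFSCs, were sorted from organoids that were untreated or had received N1-acetylspermidine (N1-AcSpd), an acetylated polyamine, for the last 72 h. RNA-seq and Ribo-seq were made from the same lysates of 4 groups and 2 donor mice, so there were 16 libraries, 8 per assay and 2 per group, and every contrast rests on the same 2 mice.

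In the follicle, Sox9, an HMG-box factor, and Lhx2, a LIM-homeodomain factor, are needed to specify and keep the bulge stem cells. Nfatc1, which calcineurin sends to the nucleus, and Foxc1, a forkhead factor, hold these cells in rest, and Runx1, a Runt-domain factor, favours their activation. Tcf7l1 is the TCF/LEF factor that represses Wnt targets in the bulge, and Id2 lacks a DNA-binding domain and keeps E-proteins off DNA, often as a target of BMP signalling.

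The members' regulatory sequence was looked at first, because the 7 genes moved together in RNA-seq. Start-site windows of RefSeq (GRCm38.p6, 250 bases before and 50 after the start) were matched by symbol for 5 of the 7 members, with 7 windows in all, and not for Sox9 and Nfatc1. They were searched on both strands for TGTGGT (RUNX), CTTTGA (TCF/LEF), ACAATG (SOX), TAATTA (LHX), TAAACA (FOX), TGGAAA (NFAT) and CAGCTG (E-box), the letters bound by the members' own families or, for the E-box, by the partners of Id2. The stretches before the start are printed for 3 windows that hold a match, 5′ to 3′ on the gene's strand, with the matched letters in capitals.
Id2, chr12:25096093-25096342, minus strand: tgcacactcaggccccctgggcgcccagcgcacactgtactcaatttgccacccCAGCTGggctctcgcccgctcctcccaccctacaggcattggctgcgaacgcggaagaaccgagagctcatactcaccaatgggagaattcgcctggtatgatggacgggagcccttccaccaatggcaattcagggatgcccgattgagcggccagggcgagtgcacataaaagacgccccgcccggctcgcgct
Foxc1, chr13:31806396-31806645, plus strand: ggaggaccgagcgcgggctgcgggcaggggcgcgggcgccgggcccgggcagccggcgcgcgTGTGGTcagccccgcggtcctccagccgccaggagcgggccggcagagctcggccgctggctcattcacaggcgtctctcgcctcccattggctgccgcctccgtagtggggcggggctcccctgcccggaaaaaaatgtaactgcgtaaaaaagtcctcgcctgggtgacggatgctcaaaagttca
Runx1, downstream start, chr16:92697330-92697579, minus strand: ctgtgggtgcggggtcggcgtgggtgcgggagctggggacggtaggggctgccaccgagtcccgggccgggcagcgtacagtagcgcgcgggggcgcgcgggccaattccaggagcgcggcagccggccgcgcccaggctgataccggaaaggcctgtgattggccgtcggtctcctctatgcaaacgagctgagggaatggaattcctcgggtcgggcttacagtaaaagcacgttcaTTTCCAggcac
The Id2 window held the E-box 196 bases before the start, the Foxc1 window held TGTGGT 188 bases before it, and the Runx1 window held the reverse of TGGAAA 11 bases before it. The window at the far upstream start of Runx1 held 4 matches, none overlapping another: TGGAAA 37 bases before the start, TAAACA 22 bases after it, and the reverse of TGTGGT 28 and 36 bases after it. The TCF/LEF, SOX and LHX letters were not found in the 7 windows, and none of the 7 motifs was found in both Lhx2 windows or in the Tcf7l1 window. Among all 32851 windows of 300 bases, TGTGGT was in 16.8%, CTTTGA in 16% (5257 windows), ACAATG in 12.6%, TAATTA in 5.29%, TAAACA in 13.4%, TGGAAA in 21.4% and CAGCTG in 16.3%. Apart from the far upstream Runx1 start, at 45% G and C, the members' windows held 63.3% to 75.3% G and C, against a median of 52.7% over all windows.

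RNA-seq libraries held 21612795 to 31524062 counts and Ribo-seq libraries 34475 to 268052 footprints on the kept transcripts, so that the members were read far more deeply as RNA than as footprints. In the RNA-seq contrast averaged over both treatments, 8 of 9 HFSC markers were higher in HFSCs. Of these, 6 passed at an adjusted p under 0.05 in edgeR, where 2.11% of all genes passed as higher. Cd34, on which the cells were sorted, was higher by 4.53 ± 0.246 (log2 fold change ± SE, adjusted p = 0.000206 in edgeR). The bulge keratin Krt15 was higher by 1.86 ± 0.0833 (adjusted p = 8.11e-05 in edgeR). Itga6, also used in the sort, was the 1 marker below 0, at −0.29 ± 0.0768. Spinous and granular keratinocyte markers moved the other way: 7 of 7 were lower in HFSCs and 5 passed, where 1.8% of all genes passed as lower. In CPM, a count scaled to a common library size with edgeR's TMM factors, they had summed levels of 473 to 1052 CPM in progenitors against 234 to 433 CPM in HFSCs. Summed markers of other cell types reached at most 13.8 CPM for melanocytes, 13.6 CPM for fibroblasts, 3.18 CPM for immune cells, 2.43 CPM for endothelial cells and 0.715 CPM for Merkel cells in any library, with Lum, Cdh5, Cd207, Lyz2, Csf1r and Atoh1 at 0 in all 8. One pair of libraries went against its numbers. The difference between the mice correlated across genes at 0.355 to 0.675 among 3 RNA-seq groups and at −0.631 to −0.377 between these and the N1-AcSpd HFSC group, so calls of members that changed without 1 of its libraries are given below.

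The 7 factors covered a wide range of RNA levels. Per kilobase of coding sequence, Sox9 was highest in all 4 groups, from 78.3 ± 16.4 CPM (SD, n = 2) in N1-AcSpd progenitors to 169 ± 25.1 CPM in untreated HFSCs, above Runx1 without overlap in each group. Runx1, Foxc1 and Id2 followed, with Foxc1 and Id2 overlapping in all 4 groups and Runx1 apart from Foxc1 only in untreated progenitors. Nfatc1 came next in every group, between 15.3 ± 1.80 and 32.4 ± 0.713 CPM per kilobase, apart from both its neighbours. Tcf7l1 and Lhx2 were lowest and overlapped in each group, from 4.11 ± 0.612 CPM per kilobase for Tcf7l1 in N1-AcSpd progenitors to 12.7 ± 7.37 for Lhx2 in untreated HFSCs. Among 14163 genes with a coding length, 91.7% lay below Sox9 in mean level and 36.9% below Tcf7l1.

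The comparison of HFSCs with progenitors asks whether these factors mark the CD34+ state in culture. All 7 members had log2 fold changes above 0 for HFSCs over progenitors, with a median of 0.77 against −0.01 over 14224 genes, of which 48.9% were above 0, when untreated and N1-AcSpd groups were averaged (4 libraries against 4). At an adjusted p under 0.05 in edgeR, Nfatc1, Id2 and Sox9 passed, 3 of 7 members, where 2.11% of all genes passed as higher. Lhx2, Tcf7l1, Foxc1 and Runx1 had adjusted p values of 0.0590, 0.0584, 0.0821 and 0.0901. All 7 had an unadjusted p under 0.05 in this direction, as did 9.21% of all genes. Libraries of the same treatment did not overlap between the cell types for any of the 7 members, which held for 19.1% of all genes in the untreated groups and 19.6% in the N1-AcSpd groups. Taken by mouse, all 28 ratios of HFSC over progenitor (7 members, 2 mice, 2 treatments) lay above 0 on the log2 scale, from 0.08 for Foxc1 to 1.69 for Lhx2, a sign that follows from the lack of overlap. In bulk RNA from sorted cells, fewer cells of a type and less RNA per cell cannot be told apart. The spinous and granular markers given above moved with the same contrast, and their part in the members' difference was not tested.

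**Figure D1:**
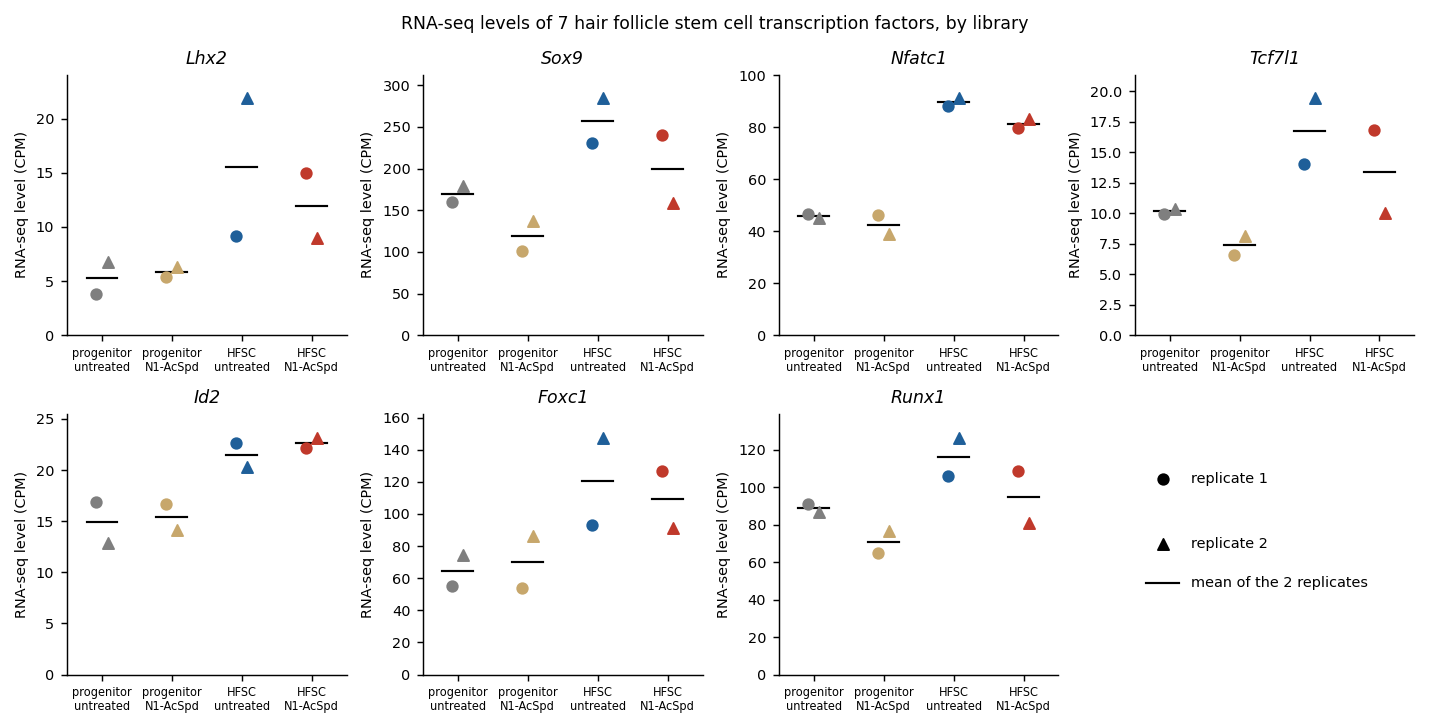
RNA-seq level in CPM (counts scaled to a common library size) of each member, 1 panel per gene, with the 4 groups on the x axis; circles are replicate 1, triangles replicate 2 and lines the mean of both. Within each treatment both HFSC libraries lie above both progenitor libraries in every panel, and in Lhx2, Sox9, Tcf7l1, Foxc1 and Runx1 the triangle lies below the circle in the N1-AcSpd HFSC group.

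Nfatc1 gave the steadiest difference. The gene lies on chr18:80606205-80708173 (GRCm38, minus strand, kept transcript). Its level was 46.6 and 45.1 CPM in the untreated progenitor libraries and 88.4 and 91.2 CPM in the untreated HFSC libraries. With N1-AcSpd it was 46.1 and 39.0 CPM in progenitors and 79.6 and 83.4 CPM in HFSCs. The 4 HFSC libraries all lay above the 4 progenitor libraries, with a wide gap between them. HFSCs were 1.94-fold higher (log2 fold change 0.95 ± 0.0778, adjusted p = 0.00114 in edgeR), and the call held under all 15 alternatives, with adjusted p from 1.73e-18 to 0.00905. Nfatc1 also passed within the untreated groups (0.97 ± 0.110, adjusted p = 0.0251) and within the N1-AcSpd groups (0.94 ± 0.110, adjusted p = 0.0138), and was the only member to do so, where 0.112% and 0.302% of all genes passed as higher. With the donor as a block the untreated call was lost (adjusted p = 0.0730), and it was lost without any 1 of its 4 libraries, with adjusted p from 0.0754 to 0.279. The N1-AcSpd call stayed with the block (0.0377) and without replicate 2 of the N1-AcSpd HFSCs (0.0488), and was lost without replicate 1 of these cells (0.0990) or without replicate 1 or 2 of the N1-AcSpd progenitors (0.0762 and 0.0537).

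Id2, the partner that blocks E-proteins (ENSMUSG00000020644, chr12:25093801-25096092, minus strand), was the next most even. Its level was 16.9 and 12.9 CPM in untreated and 16.6 and 14.1 CPM in N1-AcSpd progenitors. HFSCs held 22.6 and 20.3 CPM untreated and 22.1 and 23.2 CPM with N1-AcSpd, so that the 2 cell types did not overlap over all 8 libraries. The averaged difference was 0.54 ± 0.116 on the log2 scale (adjusted p = 0.0398 in edgeR), and 0.0405 with the donor as a block. Without any 1 of the 8 libraries the adjusted p ran from 0.0525 to 0.106.

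Sox9 (ENSMUSG00000000567, chr11:112782224-112787760, plus strand) was 160 and 179 CPM in untreated progenitors and 101 and 137 CPM in N1-AcSpd progenitors. In HFSCs it was 230.3 and 284 CPM untreated and 241 and 159 CPM with N1-AcSpd. The lowest HFSC library, replicate 2 with N1-AcSpd, thus fell just under the untreated progenitors, and the cell types overlapped when both treatments were put together. The averaged difference was 0.67 ± 0.152 (adjusted p = 0.0472 in edgeR). The call was lost with the donor as a block (adjusted p = 0.0756). It was also lost without any 1 of the 4 untreated libraries (0.0563 to 0.164), without replicate 1 of the N1-AcSpd progenitors (0.128) and without replicate 1 of the N1-AcSpd HFSCs, where the log2 fold change was 0.51 (adjusted p = 0.116). It stayed without replicate 2 of the N1-AcSpd progenitors (0.0465) and without replicate 2 of the N1-AcSpd HFSCs, at a log2 fold change of 0.82 (adjusted p = 0.0213).

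Lhx2 (ENSMUSG00000000247, chr2:38350759-38369733, plus strand) had the largest fold change of the 7 and the widest spread. It was 3.84 and 6.76 CPM in untreated progenitors, 5.33 and 6.32 CPM in N1-AcSpd progenitors, 9.17 and 21.9 CPM in untreated HFSCs and 14.9 and 8.98 CPM in N1-AcSpd HFSCs. All HFSC libraries were above all progenitor libraries, while the HFSC libraries differed among themselves by more than the progenitors did. The averaged log2 fold change was 1.29 ± 0.310, or 2.45-fold, with an adjusted p of 0.0590 in edgeR, and 0.0246 without replicate 1 of the untreated HFSCs.

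Foxc1 (ENSMUSG00000050295, chr13:31806633-31812476, plus strand) did not overlap between the cell types either, but only narrowly. Its progenitor levels were 54.9 and 74.3 CPM untreated and 53.7 and 86.4 CPM with N1-AcSpd, and its HFSC levels were 92.9 and 147.5 CPM untreated and 126.8 and 91.2 CPM with N1-AcSpd. The averaged log2 fold change was 0.77 ± 0.206. Together with Lhx2, Nfatc1 and Id2 this makes 4 of 7 members whose 4 HFSC libraries all lay above the 4 progenitor libraries, against 5.1% of all genes (725 of 14224).

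Tcf7l1 (ENSMUSG00000055799, chr6:72627272-72788952, minus strand) and Runx1 (ENSMUSG00000022952, chr16:92605398-92696125, minus strand) overlapped across treatments through the same N1-AcSpd HFSC library as Sox9. Tcf7l1 was 9.94 and 10.4 CPM in untreated progenitors, 6.60 and 8.15 CPM in N1-AcSpd progenitors, 14.1 and 19.4 CPM in untreated HFSCs and 16.8 and 9.98 CPM in N1-AcSpd HFSCs (averaged log2 fold change 0.79 ± 0.188). Runx1 had the smallest difference of the 7, at 0.41 ± 0.113. It was 91.0 and 86.8 CPM in untreated progenitors and 106 and 127 CPM in untreated HFSCs. With N1-AcSpd it was 64.9 and 76.6 CPM in progenitors and 109 and 81.2 CPM in HFSCs. Without replicate 2 of the N1-AcSpd HFSCs both genes passed in edgeR, Tcf7l1 at 0.97 (adjusted p = 0.0227) and Runx1 at 0.52 (adjusted p = 0.0399), and without replicate 1 of these cells neither did (0.141 and 0.219).

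The count of members passing moved with the libraries and the tool. It was 1 without replicate 1 or 2 of the untreated progenitors, replicate 2 of the untreated HFSCs, replicate 1 of the N1-AcSpd progenitors or replicate 1 of the N1-AcSpd HFSCs, and 4 without replicate 2 of the N1-AcSpd HFSCs. DESeq2 called all 7, and so did edgeR without a minimum count. The log2 fold change stayed above 0 for every member under each of the 273 alternative fits of the 3 cell type contrasts.

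**Figure D2:**
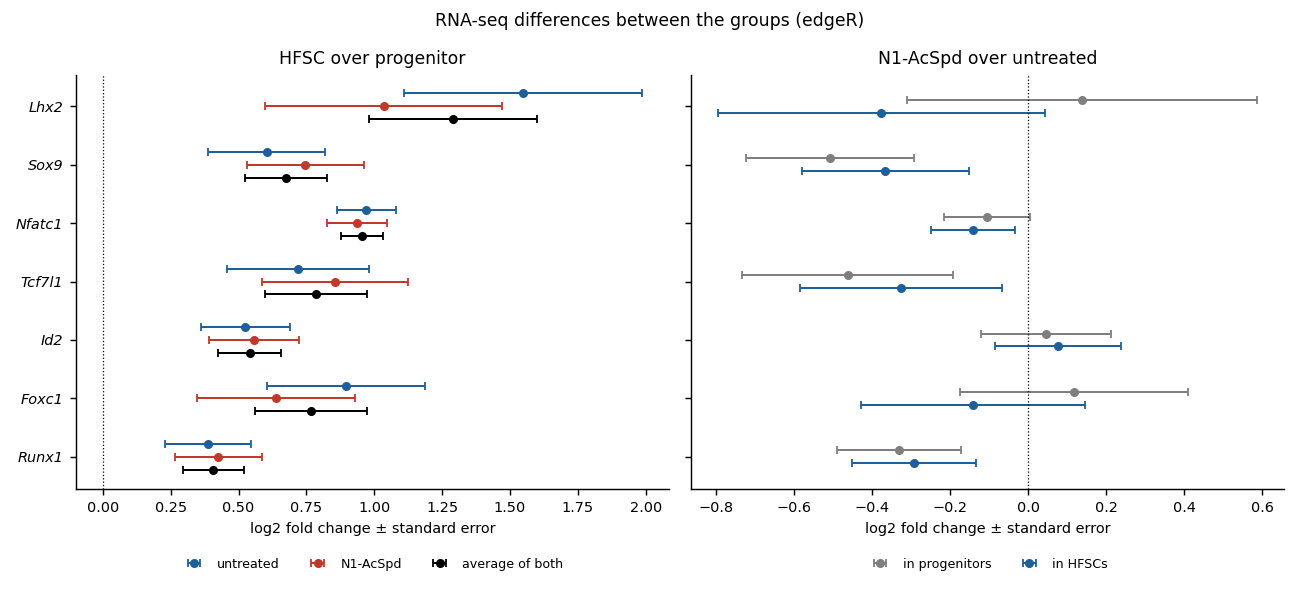
Fitted log2 fold changes with standard errors (edgeR) for HFSC over progenitor (left) and N1-AcSpd over untreated (right), genes on the y axis and colours as named under each panel. On the left every point is above 0 and Nfatc1 has the narrowest bars; on the right the points lie between −0.51 (Sox9 in progenitors) and 0.14 (Lhx2 in progenitors), none past an adjusted p of 0.05.

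In the N1-AcSpd HFSC group replicate 2 lay below replicate 1 for 5 members, 4 of which had the opposite order in each of the other groups. There replicate 2 held 0.601 of the replicate 1 level for Lhx2, 0.660 for Sox9, 0.595 for Tcf7l1, 0.719 for Foxc1 and 0.746 for Runx1. In the other 3 groups the same ratio was 1.19 to 2.38 for Lhx2, 1.12 to 1.35 for Sox9, 1.04 to 1.38 for Tcf7l1, 1.35 to 1.61 for Foxc1 and 0.954 to 1.19 for Runx1. Runx1 was thus mixed in the other groups. Id2 had a ratio of 1.05 in the N1-AcSpd HFSC group and 0.763 to 0.896 elsewhere, so that its order was also the reverse of the other groups. Nfatc1 was at 1.05 in that group and 0.847 to 1.03 elsewhere. By mouse, the HFSC over progenitor ratio of Foxc1 under N1-AcSpd was 1.24 for replicate 1 and 0.08 for replicate 2 on the log2 scale, where the untreated ratios were 0.76 and 0.99. With the numbers of the 2 N1-AcSpd HFSC libraries exchanged, a check chosen after seeing the data, the same ratios of Foxc1 were 0.76 and 0.55.

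**Figure D3:**
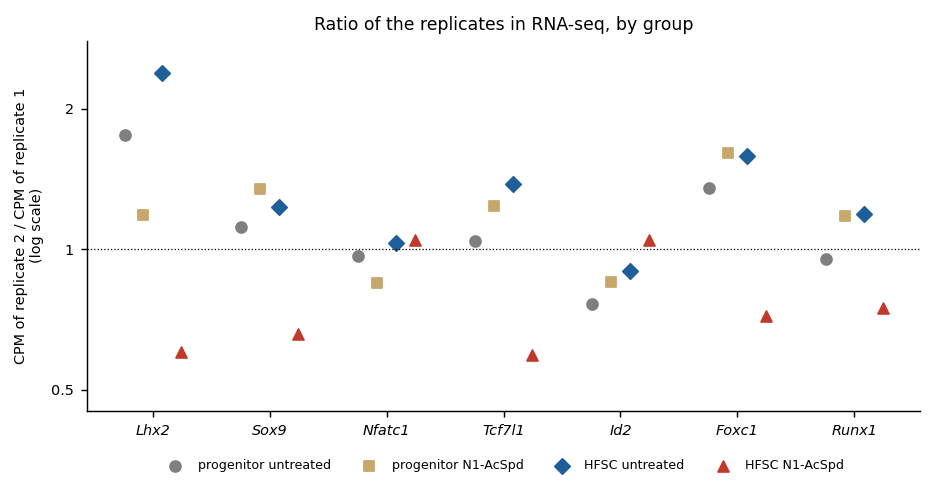
CPM of replicate 2 divided by CPM of replicate 1 in RNA-seq (y axis, log scale) for each member (x axis), with 1 symbol per group and a dotted line at equal levels. The N1-AcSpd HFSC triangles lie between 0.595 and 0.746 for Lhx2, Sox9, Tcf7l1, Foxc1 and Runx1, below the other groups, and at 1.05 for Nfatc1 and Id2.

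N1-AcSpd against no treatment was compared within each cell type. No member passed in progenitors (adjusted p 0.543 to 0.975 in edgeR), where 0.239% of all genes did, or in HFSCs (0.716 to 0.952). DESeq2 called 0 members in both. In edgeR 1 member in progenitors had an unadjusted p under 0.05, where 1262 of 14224 genes did, and 0 in HFSCs, where 1100 genes did. Sox9, Tcf7l1 and Runx1 were lower in both N1-AcSpd progenitor libraries than in both untreated ones, 3 of 7 members, against 20.7% of all genes. Their log2 fold changes were −0.51 ± 0.215 for Sox9 (unadjusted p = 0.0431 in edgeR, adjusted p = 0.543), −0.46 ± 0.271 for Tcf7l1 and −0.33 ± 0.160 for Runx1. By mouse, these 3 were therefore below the untreated level in both mice. Nfatc1 was also below it in both, at −0.01 in replicate 1 and −0.21 in replicate 2, with overlapping libraries. How many of all genes lay below in both mice was not counted in progenitors. Lhx2, Id2 and Foxc1 had 0.14 ± 0.449, 0.05 ± 0.166 and 0.12 ± 0.292, with the 2 mice on opposite sides of 0.

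In HFSCs, 6 of the 7 log2 fold changes with N1-AcSpd were below 0, from −0.14 to −0.38, and that of Id2 was 0.08 ± 0.162. For Lhx2, Sox9, Tcf7l1, Foxc1 and Runx1 the 2 mice pointed in opposite directions, for Lhx2 by 0.70 in replicate 1 and −1.28 in replicate 2. These directions rest on the replicate numbers of the N1-AcSpd HFSC libraries. As numbered, 1 of 7 members lay below the untreated level in both mice, as did 3551 of 14224 genes, and with these 2 numbers exchanged 6 of 7 did, Id2 being the exception, as did 3969 of 14224 genes (27.9%). Only Nfatc1 lay below its untreated libraries without overlap (−0.14 ± 0.108), as did 17.2% of all genes. In progenitors 34 of 14224 genes passed, among them Krt15 (−0.84 ± 0.116, adjusted p = 0.0428) and the cornified envelope gene Ivl (1.38 ± 0.102, adjusted p = 0.00542). Whether both calls hold under the alternatives was not followed. Spinous and granular marker sums ranged over 234 to 480 CPM in untreated and 321 to 1052 CPM in N1-AcSpd libraries, and whether they bear on the members' levels was not tested. In HFSCs 0 genes passed in edgeR, with 1100 at an unadjusted p under 0.05, and 125 passed in DESeq2. The treatment effect was not shown to differ between the cell types: the interaction ran from −0.51 ± 0.614 for Lhx2 to 0.14 ± 0.302 for Sox9, with 0 of 14224 genes passing in edgeR, 118 at an unadjusted p under 0.05.

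The 7 genes differed in their footprints relative to RNA-seq counts over the same coding sequence, a measure of ribosome density. If footprints followed the RNA share of each library, 166.8 footprints would be expected on Sox9 and 320 were counted, a ratio of 1.92 (exact Poisson 95% interval 1.71 to 2.14, counting error only). Id2 had 41 footprints for 15.0 expected, a ratio of 2.74 (1.96 to 3.71). Nfatc1 was at 0.962 (0.719 to 1.26, 52 footprints), close to the median of 1.01 over 9919 genes with at least 1000 RNA-seq counts, whose middle 50% lay between 0.530 and 1.70.

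The remaining members had ratios below 1. Those of Foxc1 and Lhx2 lay inside the middle range of all genes given above, 0.530 to 1.70, and those of Runx1 and Tcf7l1 below it. Foxc1 had 50 for 81.2 expected, a ratio of 0.616 (0.457 to 0.812), and Runx1 27 for 80.5, a ratio of 0.335 (0.221 to 0.488). Runx1 and Foxc1 had nearly the same number of RNA-seq counts, 19160 and 18821. Lhx2 had 5 for 9.04 expected (0.553, interval 0.180 to 1.29), which cannot be told from 1 at this depth. Its footprints were 3 in replicate 2 of the untreated HFSCs and 2 in replicate 2 of the N1-AcSpd progenitors. Tcf7l1, the Wnt repressor, had 1 footprint in all 8 libraries, in replicate 2 of the untreated HFSCs, for 10.7 expected. Its ratio was 0.0936 (0.00237 to 0.521), with an interval that does not cover the variation between libraries. Lhx2 and Tcf7l1 both stayed below the footprint minimum set for Ribo-seq, so their ratios are descriptions only.

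Some coding sequence is shared with other genes. All 28-base words of the Tcf7l1, Lhx2 and Nfatc1 coding sequences occurred in transcripts of their own gene only (100%), as did 99.2% of those of Runx1, 97.9% for Sox9, 96.8% for Foxc1 and 87.2% for Id2, and the part of shared sequence in the ratios was not tested. The coding sequences of the 7 members held 55.0% to 69.0% G and C, Id2 the lowest and Foxc1 the highest, against a median of 51.7% over 22427 coding transcripts. Sox9, with the second highest ratio, held 64.1% and Runx1 64.4%. Ligation and amplification bias of the footprint libraries was not tested.

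**Figure D4:**
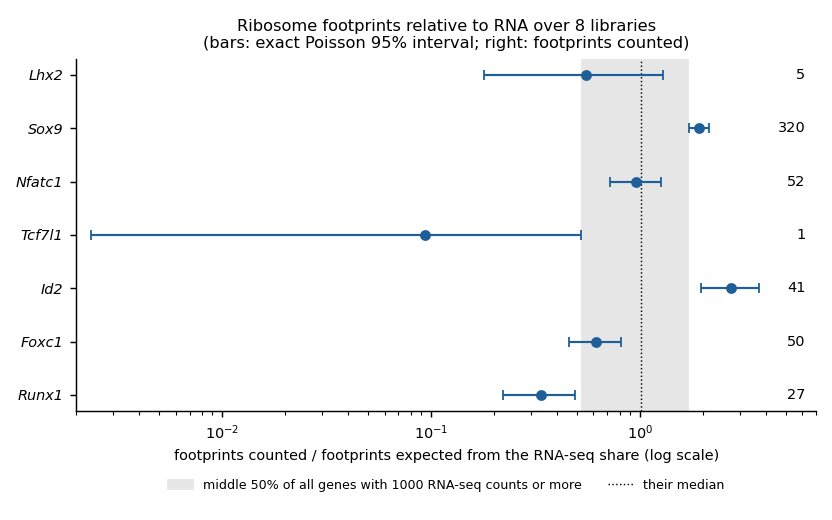
Footprints counted over footprints expected from the RNA-seq share (x axis, log scale) for each member (y axis), summed over 8 library pairs, with exact Poisson 95% intervals, the number of footprints at the right and the middle 50% of all genes in grey. Id2 and Sox9 lie above the grey band with their whole intervals. Nfatc1 lies inside it, as do the points of Foxc1 and Lhx2, and Runx1 lies below it. The point of Tcf7l1 also lies below it, but rests on 1 footprint, under the minimum set for Ribo-seq.

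Between the groups, footprints were too few to separate most members. Sox9 had 13 and 93 footprints in untreated progenitors, 28 and 60 in untreated HFSCs, 30 and 20 in N1-AcSpd progenitors and 44 and 32 in N1-AcSpd HFSCs. Scaled by library, these were 330 and 378 CPM, 493 and 481 CPM, 374 and 332 CPM, and 308 and 536 CPM. Untreated HFSCs lay above untreated progenitors, 2 libraries against 2, and the N1-AcSpd groups overlapped. How many of all genes separate in this way was not counted in footprints, so this order is a description only. Averaged over both treatments, the Sox9 difference was 0.32 ± 0.325 on the log2 scale (unadjusted p = 0.321 in edgeR). Runx1 had 4 and 6 footprints in untreated progenitors, 0 and 9 in untreated HFSCs, 3 and 0 in N1-AcSpd progenitors and 4 and 1 in N1-AcSpd HFSCs. Nfatc1 ranged over 2 to 17 footprints a library, Id2 over 0 to 16 and Foxc1 over 0 to 15. Pooled over libraries, Foxc1 had 16 footprints in progenitors, or 35.7 CPM of the unscaled total (20.4 to 57.9), and 34 in HFSCs, or 85.5 CPM (59.2 to 119), with intervals that cover counting error only.

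Over samples, all 5 members with enough footprints had log2 fold changes above 0 for HFSCs over progenitors (0.04 to 1.00, median 0.38), as did 50.3% of all genes, and 0 passed in edgeR or DESeq2 (adjusted p = 1.00, unadjusted p 0.129 to 0.963 in edgeR). Foxc1 was at 1.00 ± 0.661, Nfatc1 at 0.55 ± 0.670, Id2 at 0.38 ± 0.741, Sox9 at 0.32 ± 0.325 and Runx1 at 0.04 ± 0.766, and the value for Runx1 turned negative in DESeq2 (−0.26), with other size factors (−0.021) and with counts summed over transcripts (−0.32). Without replicate 2 of the untreated HFSCs, Foxc1 was at −1.86, Id2 at −2.02 and Runx1 at −2.55. Here 13 of 8440 genes passed in either direction, and 0.0829% as higher. For N1-AcSpd against untreated footprints, averaged over both cell types, the 5 values ran from −0.99 ± 0.894 for Runx1 to 0.60 ± 0.669 for Foxc1, and 0 passed in edgeR or DESeq2, with 0 at an unadjusted p under 0.05, where 0.0829% of all genes passed in either direction.

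Translational efficiency, the change of footprints relative to the change of RNA, gave no call either. Sox9 was at −0.43 ± 0.299 in HFSCs over progenitors (adjusted p = 0.889 in edgeR) and Nfatc1 at −0.41 ± 0.452. Foxc1, Id2 and Runx1 lay at 0.33 ± 0.715, −0.04 ± 0.716 and −0.10 ± 0.833. Of 8439 genes 0 passed in edgeR, with 507 at an unadjusted p under 0.05, and 0 passed in DESeq2. The standard errors of 0.299 to 0.833 show how little these footprints resolve.

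Gene forms were compared through the counted coding sequence, since transcripts with the same coding exons and different untranslated parts had identical counts in 1417 of 1422 pairs. Nfatc1 (ENSMUSG00000033016) has 2 starts on chr18, and the transcript from the upstream start, ENSMUST00000170905, had 14272 RNA-seq counts against 13776 for the kept one from the downstream start, ENSMUST00000167977. Its surplus was 16 and 41 counts in untreated progenitors, 25 and 5 in N1-AcSpd progenitors, 119 and 114 in untreated HFSCs and 82 and 94 in N1-AcSpd HFSCs. That is 0.618% to 3.92% of the kept transcript's counts in progenitors and 3.61% to 4.73% in HFSCs. The highest progenitor library thus lay above the lowest HFSC library. These are counts over whole coding sequences, so neither they nor the surplus are amounts of separate forms. Another transcript from upstream, ENSMUST00000078049, with a shorter coding sequence, had 13749 RNA-seq counts, below the kept one. This comparison was chosen after the values were seen and carries no test. In footprints the transcript from the upstream start had 43 counts and the kept one 52, again over whole coding sequences.

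Runx1 transcripts from both starts had near-equal counts, 18981 for the far upstream ENSMUST00000023673 and 19160 for the kept ENSMUST00000168195, so that the counts do not tell the 2 starts apart. Sox9 and the single-exon Foxc1 had 1 transcript each. Antisense genes lie across Lhx2 (Gm27197, Gm13584), Tcf7l1 (Gm15401, Gm15402), Runx1 (Gm26626) and Nfatc1 (AC123818.1). None was in the count table, the strand used in counting was not stated, and reads of a gene and its antisense partner cannot be told apart here.

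Relatives of the members lay above 0 more often than below in RNA-seq, but not in footprints. Of 20 family members 16 reached a mean of 1 RNA-seq count, 12 of them with a log2 fold change above 0 in the averaged contrast, median 0.46. In that contrast 48.9% of all genes lay above 0 and 2.11% passed as higher. The 3 other TCF/LEF genes passed: Lef1, the partner of β-catenin in hair differentiation, by 3.08 ± 0.494 (adjusted p = 0.0139 in edgeR), Tcf7 by 0.89 ± 0.139 (0.0124) and Tcf7l2 by 0.81 ± 0.135 (0.0160). With Tcf7l1 at 0.79, all 4 genes of this family lay above 0. Lef1 had the lowest level, 0.289 ± 0.187 CPM in progenitors and 2.94 ± 2.11 CPM in HFSCs (SD over 4 libraries, from 2 mice under both treatments). In HFSCs Lef1 was at −1.75 ± 0.569 for N1-AcSpd over untreated (adjusted p = 0.489 in edgeR). Among the Id genes Id4 passed (1.16 ± 0.265, adjusted p = 0.0499, and 0.0800 with the donor as a block), and Id1 and Id3 had 0.54 ± 0.276 and 0.36 ± 0.259. Nfatc3 and Nfat5, the other NFAT genes with appreciable RNA, had −0.03 ± 0.0833 and 0.00 ± 0.134, Runx2 had 0.48 ± 0.144 and Sox21 was at −0.04 ± 0.160. In footprints 8 of these relatives could be tested, 3 above 0 and 5 below, with a median of −0.12, where 50.3% of all genes lay above 0. In edgeR or DESeq2 0 passed, and 1 had an unadjusted p under 0.05 in edgeR, as did 349 of 8440 genes. In translational efficiency 1 of the 8 lay above 0 and 7 below, with a median of −0.29.

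Partners of the members lay closer to 0. The 21 cofactors included Ldb1 for LIM factors, Cbfb for Runt factors, the TLE corepressors and the calcineurin subunits. In RNA-seq 14 of them were above 0 and 7 below, with a median of 0.10, where 48.9% of all genes lay above 0. Of the 21, 0 passed in edgeR or DESeq2. An unadjusted p under 0.05 in edgeR was reached by 3 of them and by 2573 of 14224 genes. Cbfb was at 0.04 ± 0.0976, Ldb1 at −0.01 ± 0.0855 and the calcineurin catalytic subunit Ppp3ca at 0.12 ± 0.0692. The widest values were Tle2 at 0.63 ± 0.328 and Tle4 at −0.35 ± 0.0960. In the BMP pathway, which acts upstream of Nfatc1 and the Id genes, 1 of 20 genes passed, where 2.11% of all genes passed as higher. It was the receptor-activated Smad9, by 2.45 ± 0.484 (adjusted p = 0.0301 in edgeR). Its level was only 0.220 ± 0.174 CPM in progenitors and 1.22 ± 0.569 CPM in HFSCs (SD over 4 libraries, from 2 mice under both treatments). Smad1 and Smad5, which carry the same signal at much higher RNA levels, had 0.15 ± 0.0740 and 0.17 ± 0.0791, and Fstl1 was lowest of the list at −1.69 ± 1.11.

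Of 13 other bulge and basal transcription factors 12 were above 0, as were 48.9% of all genes, and 5 passed as higher, where 2.11% of all genes did. These were Tbx1 by 1.23 ± 0.204, Gli2 by 0.97 ± 0.112, Barx2 by 0.61 ± 0.120, Foxp1 by 0.54 ± 0.0921 and Nfib by 0.53 ± 0.0989. Gli2, an effector of Hedgehog signalling, passed under all 15 alternatives, and Hopx was the member below 0, at −0.30 ± 0.176. Of 16 follicle lineage and differentiation factors 12 were below 0, with a median of −0.30, and 2 passed as lower, where 1.8% of all genes did. Grhl3, an activator of the epidermal barrier, fell by 1.33 on the log2 scale (SE 0.257, adjusted p = 0.0274, and 0.0526 with the donor as a block) and Cux1 by 0.54 (SE 0.123, adjusted p = 0.0492, and 0.0739 with the block). Foxn1, at −1.92 ± 0.466, and Gata6, at 0.91 ± 0.258, were the extremes. Of 12 genes of rest and cell cycle entry, the cell cycle inhibitor Cdkn1b was higher by 0.62 ± 0.0835 (adjusted p = 0.00691), and Ccnd1 and Cdkn1a passed as lower, at −0.44 ± 0.0875 and −0.42 ± 0.0878 (adjusted p = 0.0312 and 0.0366, with the block 0.0502 and 0.0594). Inhbb had the largest value of this list, 0.83 ± 0.217. These lists were drawn up with earlier results of the data known, so their counts are descriptions.

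Over the 8 RNA-seq libraries the members' levels rose and fell together. Pearson's r of log2(CPM + 1) ran from 0.495 (Id2 with Runx1) to 0.985 (Sox9 with Tcf7l1) over 21 pairs, with a median of 0.785. The points share the 4 groups and 2 mice, and r over pairs of all genes was not computed, so these are descriptions. Among 10873 genes averaging 50 counts or more, the 2 most like each member were Fam189b and Sox13 for Lhx2 (r = 0.987 and 0.986), H2-Q4 and Rere for Sox9 (0.991 each), Trib2 and Ulk4 for Nfatc1 (0.989 and 0.975), Kank2 and Inf2 for Tcf7l1 (0.994 and 0.991), Edc4 and Gsdmd for Id2 (0.981 and 0.980), Igfl3 and Ret for Foxc1 (0.991 and 0.990), and Rere and Sox9 for Runx1 (0.988 and 0.984). Between 16 and 89 genes per member reached r over 0.95.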

How the data were processed

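RNA-seq and Ribo-seq were measured in 16 libraries grouped by the labels. Adapter trimming by the authors used flexbar, bowtie (1.2.3 in the submitters' processing notes) took out reads of rRNA and tRNA, and STAR 2.7.3a aligned what was left to mm10 (GRCm38.p5); the submitters' processing notes also list featureCounts. Per the file headers and values, the authors deposited unscaled read counts per transcript. Counting covered coding sequence, as judged from transcripts with equal coding exons; the handling of reads with several matches is not given in the sources used here. Tables of differential translation made by the authors, with fold changes and p-values, were not used. In 512208 of 512208 values their count columns equalled the count tables.

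From these counts each gene was represented by the 1 transcript richest in footprints. Groups of an assay were fitted together in edgeR 4.0.16 (R 4.3.3) with TMM factors, a quasi-likelihood test, a minimum mean of 1 count and p-values adjusted over all genes (Benjamini-Hochberg), at a threshold of 0.05. CPM were computed on the TMM-scaled library, and log2(CPM + 1) was used only for likeness between genes. Translational efficiency was the interaction of assay and cell type over both assays. Expected footprints are the RNA share of a gene times the footprint total, summed over libraries. The fit was tested on simulated data. RNA-seq depth was 21612795 to 31524062 and Ribo-seq depth 34475 to 268052 counts, so 1 footprint was worth 3.73 to 29.0 CPM. The biological coefficient of variation was 15.0% in RNA-seq and 34.7% in Ribo-seq.

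Alternatives were DESeq2 1.42.0, its size factors in edgeR (RLE), no minimum count, a minimum mean of 10 counts, the replicate number as a block, only the groups compared, counts summed over transcripts, and leaving out each library. Replicate numbers mark the donor mouse, which pairs the samples; the mouse difference correlated between groups at 0.355 to 0.675 among 3 RNA-seq groups, −0.631 to −0.377 with the N1-AcSpd HFSC group and 0.011 to 0.100 in Ribo-seq. Genes named are the members, list genes past the threshold in an RNA-seq contrast, the largest and smallest log2 fold change of a list (genes averaging 10 counts or more), and the 2 genes most like each member; other genes named were chosen after their values were seen. Members and lists were chosen with earlier results of these data known. Genome positions and gene forms come from GENCODE M21 and promoter sequences from RefSeq (GRCm38.p6).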

Additional observations from a re-analysis of the deposited data

How the results depend on the processing

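For the members, all 273 alternative fits of the 3 RNA-seq cell type contrasts kept the direction, and 53 of 523 fits of the other comparisons turned it. The members passing were 1 in untreated groups (DESeq2 3, replicate block 0, leaving out a library 0), 1 in N1-AcSpd groups (DESeq2 2, only the groups compared 0, leaving out a library 0 to 1) and 3 on average (DESeq2 7, no minimum count 7, block 2, leaving out a library 1 to 4). In the other comparisons 0 members passed under every alternative, apart from the exchanged pairing given last.

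All genes passing moved more. For untreated groups 21 passed (DESeq2 268, no minimum count 167, only the groups compared 10, leaving out a library 1 to 7), for N1-AcSpd groups 106 (377, 262, 27, 2 to 43, and 70 summed over transcripts), and on average 556 (DESeq2 950, no minimum count 869, leaving out a library 188 to 457). For N1-AcSpd over untreated it was 34 in progenitors (DESeq2 174, no minimum count 111, a minimum mean of 10 counts 20, summed over transcripts 1, leaving out a library 0 to 3) and 0 in HFSCs (DESeq2 125, no minimum count 43, only the groups compared 5, leaving out a library 0 to 4). The interaction and translational efficiency stayed at 0 throughout. In footprints it was 13 between cell types (DESeq2 7, minimum mean of 10 counts 8, summed over transcripts 1, leaving out a library 2 to 23) and 7 for N1-AcSpd (DESeq2 0, RLE 12, no minimum count 3, minimum mean of 10 counts 2, summed over transcripts 0, leaving out a library 2 to 19). The cause of these moves was not tested.

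With the donor as a replicate block, all genes passing were 3 in untreated groups, 44 in N1-AcSpd groups, 444 on average, 7 for N1-AcSpd in progenitors, 16 between cell types in footprints and 4 for N1-AcSpd in footprints. Losses with the block are given in the report for Nfatc1 in untreated groups, Sox9, Id4, Grhl3, Cux1, Ccnd1 and Cdkn1a. No other call of a member changed. Named list genes were followed with the block only in the averaged RNA-seq cell type contrast, where no further call changed. The N1-AcSpd calls of Krt15 and Ivl in progenitors were not followed. Exchanging the 2 numbers of the N1-AcSpd HFSC RNA-seq libraries in the block, which was chosen after seeing the data, gave 6, 6 and 7 members and 752, 903 and 1950 genes in the 3 RNA-seq cell type contrasts, 1 member and 441 genes for N1-AcSpd in progenitors and 269 genes in HFSCs.

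Turned signs were as follows. Col1a2 between cell types in RNA-seq, at −0.33, was 0.30 with the block, 0.047 with the exchanged one and −0.79 to 1.25 without a library, and Sox21 −0.16 to 0.080. Runx1 footprints between cell types, at 0.04, were −0.26 in DESeq2, −0.021 with RLE and −0.32 summed over transcripts. Translational efficiency of Id2, at −0.04, was 0.015 with the block and 0.027 with the exchanged one. Leaving out 1 library gave, for N1-AcSpd in HFSCs, −0.42 to 0.23 for Foxc1, −0.85 to 0.38 for Lhx2 and −0.76 to 0.019 for Tcf7l1, and in progenitors −0.26 to 0.42 for Foxc1, −0.12 to 0.25 for Id2, −0.21 to 0.62 for Lhx2 and −0.23 to 0.021 for Nfatc1. For the interaction it gave −0.56 to 0.12 for Foxc1, −0.18 to 0.19 for Id2, −1.0 to 0.24 for Lhx2, −0.16 to 0.091 for Nfatc1, −0.22 to 0.24 for Runx1, −0.22 to 0.42 for Sox9 and −0.31 to 0.47 for Tcf7l1. In footprints between cell types it gave −1.86 to 1.37 for Foxc1, −2.02 to 2.90 for Id2 and −2.55 to 2.13 for Runx1, for N1-AcSpd −2.04 to 2.87 for Id2, −3.08 to 1.5 for Runx1 and −0.36 to 0.0007 for Sox9, and for translational efficiency −6.12 to 0.61 for Foxc1, −5.99 to 5.87 for Id2 and −6.24 to 5.42 for Runx1.

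Among the ratios of footprints to the RNA share, 61 of 63 alternatives stayed within the main interval, and the others were 2.15 for Sox9 summed over transcripts and 0 for Tcf7l1 without the library that held its only footprint. Depth limits the footprints: 1 was worth 3.73 to 29.0 CPM, so differences among the less covered members were not detectable.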

Other observations

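Under N1-AcSpd, 7 of 9 markers of the HFSC state had log2 fold changes below 0 in progenitors, with a median of −0.26, and 7 of 9 in HFSCs, with a median of −0.37, where the median over all genes was −0.01 in both. Of the members, 4 of 7 lay below 0 in progenitors, with a median of −0.11. Of the 9 markers 1 passed in progenitors, Krt15, where 0.239% of all genes passed, and 0 passed in HFSCs. Krt15 had −1.14 in HFSCs (adjusted p = 0.0562 in edgeR). Cd34, on which the cells were sorted, lay above 0 in both, at 0.38 ± 0.378 in progenitors and 0.04 ± 0.279 in HFSCs. All 7 spinous and granular markers were above 0 in progenitors, with a median of 1.60, and Ivl alone passed in edgeR. Footprints over those expected from the RNA share, pooled over the libraries of a cell type, were 2.73 in progenitors (17 footprints) and 2.74 in HFSCs (24) for Id2. They were 2.25 and 1.68 for Sox9, 1.22 and 0.815 for Nfatc1, 0.513 and 0.680 for Foxc1 and 0.360 and 0.315 for Runx1. Deep libraries weigh most in these ratios: replicate 2 of the untreated progenitors held 268052 of the 448643 progenitor footprints. No interval was computed for them.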
